A study of Polistes fuscatus with 17 samples.

Results

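Brains of paper wasp foundresses trained to tell simple patterns apart were set against brains of workers trained to tell faces apart. The comparison holds 12 of the 17 libraries of the series, chosen by their titles alone: 4 foundresses trained to patterns (F17 and F3, collected in May, and F34 and F52, collected in June) and 8 workers. Each library came from the brain of 1 adult female Polistes fuscatus caught in Ann Arbor. The workers were trained to faces after at least 1 week on a nest that was not their own, 4 on a conspecific nest (FW10, FW25 and FW28 from July, FW47 from August) and 4 on a nest of another species, Polistes metricus (FW11 and FW24 from July, FW32 and FW44 from August). All wasps went through 40 trials in a maze with negative reinforcement and were frozen 30 minutes after the last one. The 5 foundresses trained to faces were left out of every fit here, and their levels are given only beside the contigs named.

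In paper wasps of temperate regions a foundress is a female that has overwintered and starts a nest in spring, and workers are daughters that emerge later and forage and tend brood. Foundresses reproduce and contest dominance, while workers mostly do not lay eggs, so the castes differ in physiology as well as in task. P. fuscatus is known for telling individuals apart by variable facial markings, which is the skill the maze training addresses. Caste, collection season, training stimulus and rearing on a foreign nest all differ between the groups compared, and no month is shared between them, so none of these can be told apart.

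Expression was counted per contig, a stretch of transcript in an assembled transcriptome. No gene name stands beside the contig identifiers in the table, and a gene table of the P. fuscatus assembly CU_Pfus_HIC, with 13634 entries, holds 0 of them. Contigs are therefore given by identifier, and no function, genome position or brain marker could be looked up. A contig is not a gene, because 1 transcript can be split over several contigs. Levels are in CPM, a library's counts scaled to a common total, with TMM factors that adjust for differences in composition between libraries. In whole brains, fewer cells of a type and less RNA per cell cannot be told apart.

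Total counts were lower in the foundresses, at 13.4 ± 3.84 M (SD, n = 4), than in the workers, at 18.7 ± 1.51 M (n = 8). F3 had 7.69 M and the other foundresses 14.9 to 15.8 M, while workers ran from 16.5 to 20.2 M, so the groups did not overlap (exact permutation test, two-sided, p = 0.00404, the smallest 4 against 8 can give, adjusted p = 0.0242 over 6 tests). The 4 foundresses were also more unlike each other than the workers were, and much less so without F17. Their median SD of log2 CPM over contigs was 0.477, and 0.267 without F17, against 0.238 in conspecific and 0.219 in allospecific workers. The median distance of F17 from the mean of the other foundresses was 0.688 log2 CPM, against 0.338 to 0.354 for F3, F34 and F52 and 0.167 to 0.238 for workers within their nest group. For F3, F34 and F52 that mean includes F17, which widens their distances. For that reason each main result is given with and without F17. FW28, a worker, lay nearer to the foundresses than the other workers did at the contigs that separated the castes, as set out at the end, and the counts without it are given too.

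At an equal depth of 7694420 counts, more contigs had at least 1 count in 3 of the foundress brains than in any worker brain. F3 had 92188, F34 91537 and F52 92365 contigs detected, whereas F17 had 82304, and the workers had 83554 to 87530 with a median of 84614.5. F17 thus lay below every worker and the other foundresses above every worker. Foundresses without F17 averaged 92030 ± 436 contigs (SD, n = 3) and workers 85150 ± 1455 (n = 8), a difference of 6880 contigs (exact permutation test, p = 0.0121, the smallest that 3 against 8 can give, adjusted p = 0.0242). F17 was set apart with its wide profile known from these data, and it is the 1 foundress below the workers here. Leaving it out set the groups apart, so this p is not free of that choice. Including F17, the difference was 4448 contigs, with an exact permutation p of 0.0404 that did not hold on adjustment (0.0606). The 10 most abundant contigs took 10.2 ± 4.49% of counts in foundresses (n = 4) and 6.32 ± 0.83% in workers (n = 8), a difference that did not pass either (exact permutation p of 0.0566, 0.0679 when adjusted). F34, at 15.7%, and F17, at 12.2%, lay above every worker, and F3 and F52 lay within the workers' range of 5.04 to 7.83%.

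**Figure D1:**
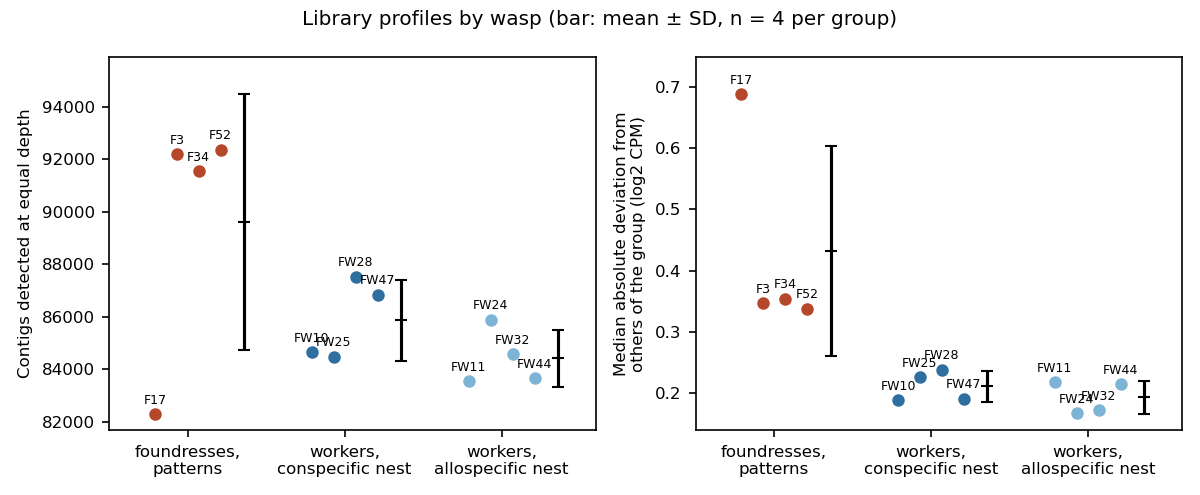
Contigs with at least 1 count at equal depth (left) and median absolute distance from the mean of the other wasps of the same group in log2 CPM (right), 1 point per wasp, with bars for the mean ± SD of each group of 4. F17 had the fewest contigs, 82304, and the widest distance, 0.688, while F3, F34 and F52 lay above all workers in both panels. The distances of F3, F34 and F52 are from means that include F17.

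Pattern-trained foundresses differed from workers in 2188 of 59242 contigs tested, 3.69%, with 1577 higher (2.66%) and 611 lower (1.03%) in foundresses. These passed a false discovery rate (FDR) of 0.05 in edgeR's quasi-likelihood test on the 12 libraries. Without F17 the count was 2569 of 60795 contigs, 4.23%, with 1584 higher (2.61%) and 985 lower (1.62%). Of the contigs called higher, 993 were shared by both fits, 63.0% of those called with F17 and 62.7% of those called without it. Of the contigs called lower, 542 were shared, 88.7% of the 611 with F17 and 542 of the 985 without it, and 0 shared contigs changed direction.

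The count depended on single wasps. With F17 in the fit it was 894 without FW10, 1059 without FW25, 1151 without FW47, 1223 without FW11, 1071 without FW24, 994 without FW32 and 954 without FW44. With F17 out it was 1604 without F3, 1132 without F34, 1180 without F52, 1548 without FW10, 1709 without FW25, 1702 without FW24, 1492 without FW32 and 4537 without FW28. More contigs were higher than lower in foundresses in each refit that left out 1 wasp.

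Among called contigs, changes were larger on the side higher in foundresses. Without F17 the contigs called higher had a median log2 fold change of 1.03, with 837 over 2-fold and 208 over 4-fold. Those called lower had a median of -0.67, with 185 over 2-fold and 31 over 4-fold. The contigs called higher were also less abundant (median 4.24 against 17.7 CPM), and at low counts a call needs a larger fold. The part of abundance in this difference was not tested. Over all contigs tested the median was 0.0059. With F17 in the fit the medians were 1.21 and -0.81, and 1049 and 174 contigs exceeded 2-fold. The share of calls that were higher in foundresses was 72.1% with F17 and 61.7% without it. That share depended on the scaling: with libraries scaled by their totals alone it was 49.0% of 1648 calls with F17 and 48.4% of 2402 without it. It also turned at an FDR of 0.01 without F17, with 196 higher and 209 lower, and with July workers only, with 6 higher and 16 lower with F17 and 155 and 201 without it. With conspecific workers only, 52 were higher and 59 lower without F17. Under the scaling by totals the median over all contigs was -0.13 log2 with F17 and -0.07 without it, against 0.02 and 0.0059 under TMM.

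**Figure D2:**
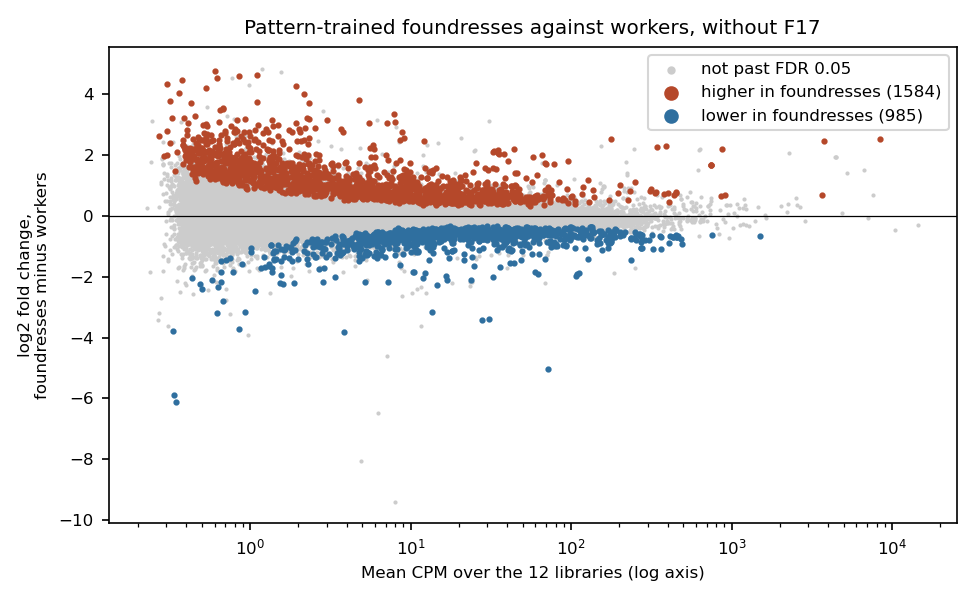
Log2 fold change of foundresses over workers, without F17, against mean CPM over the 12 libraries on a log axis, 1 point per contig. The 1584 contigs called higher lie mostly at low and middle abundance and reach over 4 log2, while the 985 called lower lie nearer to 0 and further to the right.

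The sides differed in abundance. Contigs called higher without F17 had a median level of 4.24 CPM over the 12 libraries and those called lower one of 17.7 CPM. Among contigs under 2 CPM, 3.10% were called higher and 0.315% lower. From 32 to 128 CPM the shares were 2.79% and 5.08%, and over 128 CPM they were 3.68% higher and 10.3% lower of 842 contigs. Calls lower in foundresses therefore made up a larger part of the calls at each step up in abundance. With F17 in the fit the shares over 128 CPM were 5.58% higher and 7.01% lower, and under 2 CPM 3.32% higher and 0.367% lower.

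**Figure D3:**
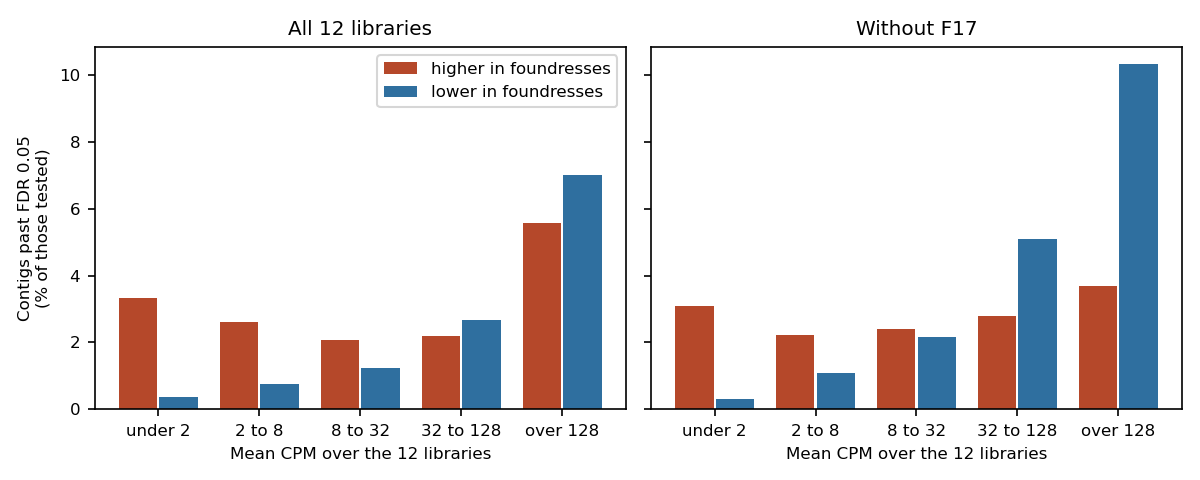
Percent of tested contigs called higher (first bar of each pair) and lower (second bar) in foundresses, by mean CPM over the 12 libraries, with F17 in the fit (left) and out of it (right). Under 2 CPM the higher side held most calls, 3.32% against 0.367% with F17, and over 128 CPM the lower side held more, 7.01% with F17 and 10.3% without it.

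The called contigs held a visible part of all RNA counted. Since the sets were chosen on these libraries, these shares are a description only. Contigs called higher took 4.56% of counts in F3, 9.76% in F34 and 5.13% in F52, against 2.38 to 4.33% in workers (median 2.61%), where the top value was FW28. These shares rest in part on 1 contig of the set, PfusTSAr1.0-043282, described below. It held 535285 of the 14.9 M counts of F34 and 188159 of the 19.9 M of FW28, and was also high in F17. Contigs called lower took 3.40% in F3, 2.81% in F34 and 3.32% in F52, against 4.53 to 5.74% in workers (median 5.49%), where the lowest value was again FW28. F17, which had no part in the choice, held 7.85% of its counts in the higher set and 3.05% in the lower set, which put it with the other foundresses on both.

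All 4 foundresses lay above all 8 workers in 1253 of the tested contigs, 2.12%, and below all of them in 1301, 2.2%. Without F17 there were 2350 contigs above, 3.87%, and 2218 below, 3.65%. Among contigs called without F17 the groups did not overlap in 1084 of the 1584 higher and 872 of the 985 lower, which restates the calls. Contigs of neighbouring identifiers often passed together and may share reads: with gaps of at most 5 between identifiers, the 1584 contigs formed 1064 runs and the 985 formed 553, the longest with 8 and 13 contigs.

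F17 was far from the workers in both directions. At all contigs tested in the 12 libraries it lay above every worker in 33.8% and below every worker in 37.9%, where F3, F34 and F52 lay above in 18.1 to 22.6% and below in 17.6 to 20.1%. At the 1584 contigs called higher without it, F17 lay above all workers in 943, within their range in 433 and below all of them in 208. At the 985 called lower it lay below all workers in 622, within their range in 253 and above all in 110. These are shares of 59.5% above for the first set and 63.1% below for the second, against 33.2% above and 37.7% below over all contigs of that fit. Its median distance from the worker mean was 0.92 log2 in the higher set and -0.57 in the lower set, against 1.03 and -0.64 in the other 3 foundresses, whose values chose the sets.

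The contigs named here were taken by 4 rules, each giving 2 contigs on either side. The first took the smallest p with F17 in the fit, among called contigs with all foundresses on 1 side of all workers. The second did the same with F17 left out. The third took the largest fold and the fourth the highest level among contigs called without F17, of at least 1 CPM on average, that kept all 12 wasps apart. Since these rules use the values, the contigs show the shape of the changes and not how common they are.

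With F17 in the fit, 2 contigs led the higher side, the first with nearly the same level in all 4 foundresses and the second highest in F17. PfusTSAr1.0-103899 stood at 2.48 CPM in F17, 2.39 in F3, 2.50 in F34 and 2.39 in F52, against 0.629 to 0.950 CPM in workers (median 0.815). It held only 19 to 38 counts per foundress and 11 to 18 per worker. With so few counts and a choice by smallest p, the near-equal levels in foundresses are not a result of their own. PfusTSAr1.0-037308 stood at 21.5, 14.7, 16.0 and 15.3 CPM in the same foundresses, against 4.02 to 7.83 CPM in workers (median 5.63). Neither contig overlapped between the foundresses trained to patterns and the workers. The 5 foundresses trained to faces averaged 1.56 ± 0.361 and 9.56 ± 2.50 CPM (SD), between both groups. In the second contig they ran from 7.38 to 12.4 CPM, so the lowest of them lay below the highest worker. The log2 fold changes were 1.58 (SE 0.18, adjusted p = 0.00195) and 1.54 (SE 0.18, adjusted p = 0.00197) in edgeR.

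On the lower side the smallest p belonged to 1 run of neighbours. PfusTSAr1.0-065071 stood at 21.3 CPM in F17, 26.8 in F3, 20.2 in F34 and 22.0 in F52, against 46.9 to 73.0 CPM in workers (median 63.6). PfusTSAr1.0-065074 stood at 42.5, 63.3, 60.3 and 59.3 CPM in the same foundresses, against 131.5 to 189.4 CPM in workers (median 161.8). PfusTSAr1.0-065073, taken by the second rule, stood at 132.8, 120.1, 108.6 and 101.7 CPM, against 226.1 to 326.1 CPM in workers (median 302.4). The identifiers are close neighbours and may share reads, so these are not 3 separate results. No wasp crossed between the groups, and the lowest worker was FW47 each time. In the fit with F17 the log2 fold changes were -1.46 (SE 0.13), -1.53 (SE 0.14) and -1.35 (SE 0.13), and edgeR's adjusted p was 0.000945 for all 3. Foundresses trained to faces averaged 22.0 ± 6.44, 55.8 ± 17.4 and 127.7 ± 22.2 CPM (n = 5), near the level of those trained to patterns.

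Without F17 the leading contigs were tight in the remaining foundresses and F17 often lay elsewhere. Both follow in part from choosing these contigs by smallest p in a fit that left F17 out. PfusTSAr1.0-033608 stood at 10.2 CPM in F3, 10.8 in F34 and 10.6 in F52, with F17 at 4.80 CPM, against 28.2 to 37.8 CPM in workers (median 32.0). All 4 foundresses lay below every worker, F17 farthest. Its log2 fold change was -1.64 without F17 (SE 0.12, adjusted p = 9.35e-05) and -1.84 with it (SE 0.20, adjusted p = 0.00146) in edgeR.

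PfusTSAr1.0-100268 stood at 51.5 CPM in F3, 44.4 in F34 and 51.8 in F52, against 18.6 to 27.8 CPM in workers (median 23.4), but at 15.8 CPM in F17. Here F17 was below every worker while the other foundresses were above every worker. The log2 fold change was 1.06 without F17 (SE 0.12, adjusted p = 0.000784), and with F17 it was 0.80 and missed the FDR (SE 0.24, adjusted p = 0.0775) in edgeR. The 5 foundresses trained to faces stood at 33.4 to 53.6 CPM.

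PfusTSAr1.0-027972 was a contig of few counts, at 1.01 CPM in F3, 0.910 in F34, 0.942 in F52 and 0.331 in F17, against 0 to 0.203 CPM in workers (median 0.0487). It held 39 counts over the 4 foundresses and 9 over the 8 workers, and the expression filter of the 12-library fit left it out. Without F17 its fitted log2 fold change was 4.33 (SE 0.50, adjusted p = 0.00129 in edgeR), and it was 3.86 with 1 mean fitted for all workers. The contig passed the filter without F17 only through F3, F34 and F52, where it was high, so this p cannot be weighed as support. Foundresses trained to faces ran from 0 to 0.827 CPM, and so reached into the range of the workers.

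The largest folds came with wide spreads among the wasps. PfusTSAr1.0-069574 stood at 8.95 CPM in F34 but 1.16 in F17, 1.26 in F3 and 0.754 in F52, against 0 to 0.534 CPM in workers (median 0.0539). Every foundress trained to patterns lay above every worker, F34 by far. Foundresses trained to faces ran from 0.216 to 9.18 CPM, and so reached into the range of the workers. The contig passed the expression filter only through foundresses, where it was high, so its p cannot be weighed as support. The fitted log2 fold change of 4.63 (SE 0.81, adjusted p = 0.00943 in edgeR, without F17) was 2.69 without F34 as well (adjusted p = 0.134). PfusTSAr1.0-057966 stood at 37.7 CPM in F17, 18.8 in F3, 3.34 in F34 and 22.1 in F52, against 0.339 to 3.15 CPM in workers (median 1.88). F34 was the lowest foundress there and lay only just above the highest worker, FW32. The log2 fold change was 3.08 (SE 0.48, adjusted p = 0.00491 in edgeR, without F17).

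The largest falls that kept the groups apart also spread widely among foundresses. PfusTSAr1.0-026526 stood at 15.1 CPM in F17, 6.18 in F3, 3.56 in F34 and 1.70 in F52, against 16.2 to 61.0 CPM in workers (median 40.3). F17 came close to FW47, the lowest worker, and the log2 fold change was -3.41 (SE 0.42, adjusted p = 0.00175 in edgeR) without F17, a fold of 10.6, and -2.53 with it (adjusted p = 0.0181). PfusTSAr1.0-049131 stood at 7.45, 7.18, 3.03 and 2.57 CPM in the same foundresses, against 14.9 to 26.1 CPM in workers (median 18.7), with a log2 fold change of -2.28 (SE 0.28, adjusted p = 0.00172 in edgeR, without F17), a fold of 4.84. The foundresses trained to faces averaged 3.50 ± 0.581 and 3.82 ± 1.06 CPM (n = 5) in these contigs.

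**Figure D4:**
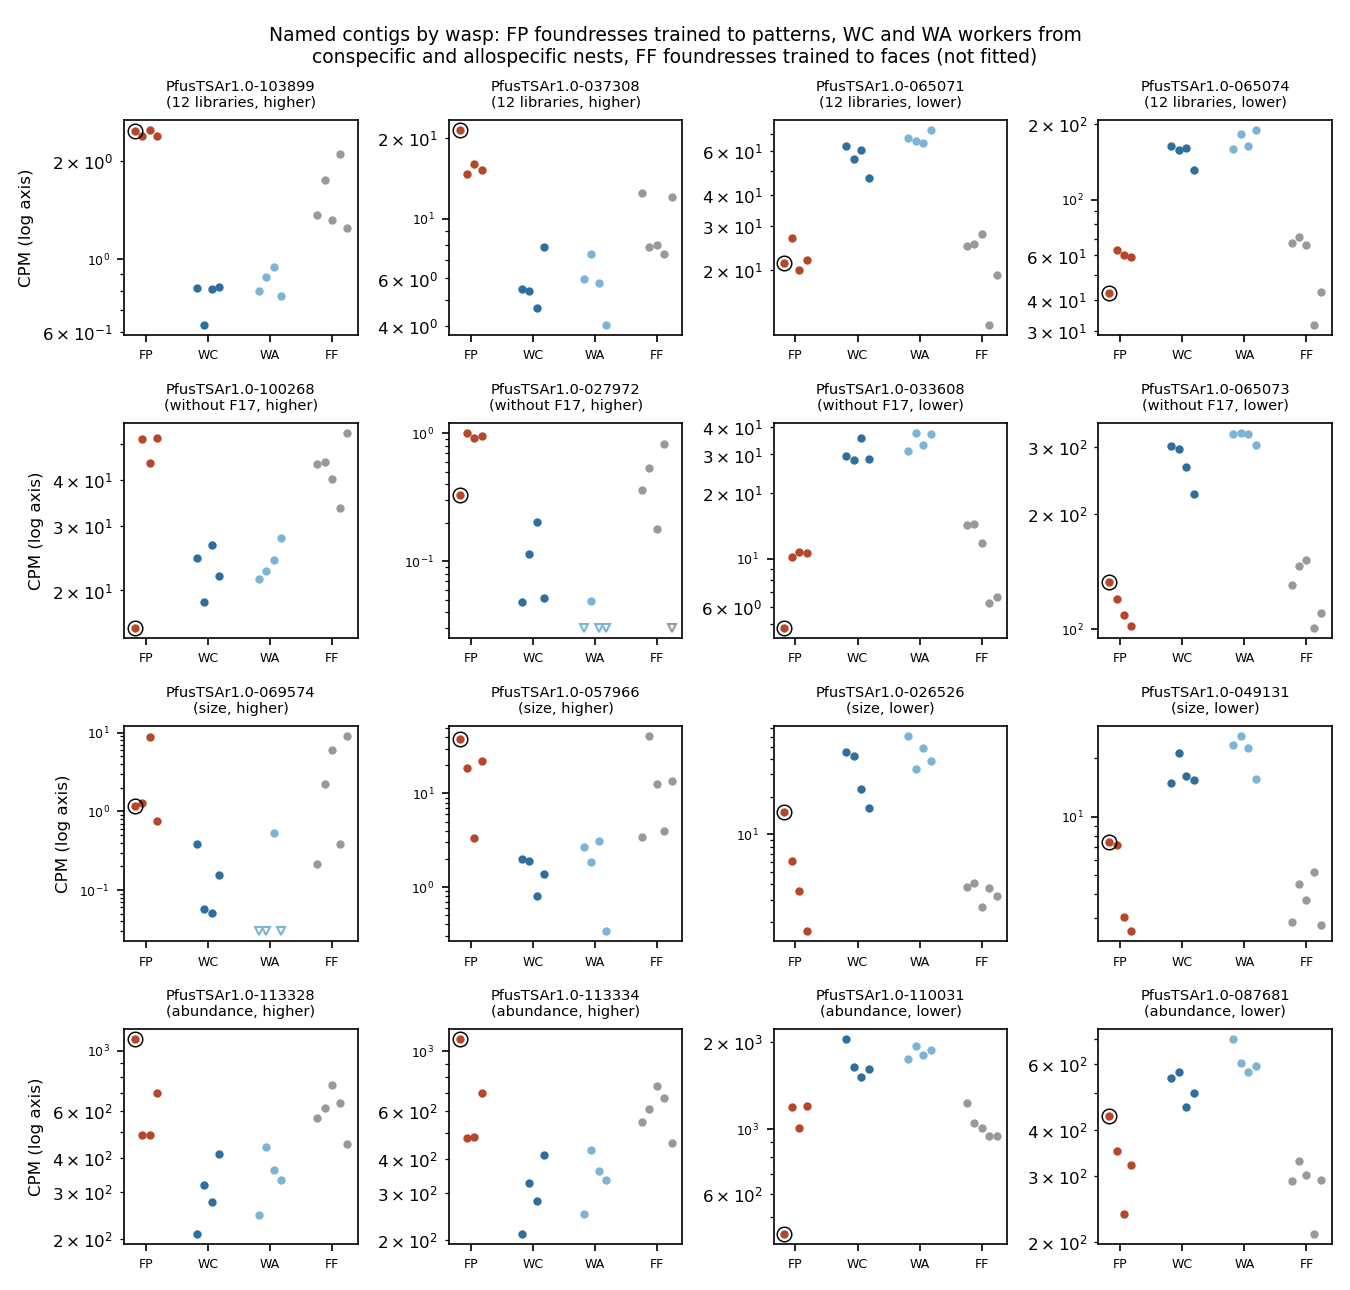
CPM per wasp on a log axis for the 16 contigs taken by rule, with foundresses trained to patterns (FP), workers from conspecific (WC) and allospecific (WA) nests and, outside the fits, foundresses trained to faces (FF). F17 is ringed, and open triangles mark libraries with 0 counts. In PfusTSAr1.0-100268 F17, at 15.8 CPM, lies below all workers while the other foundresses lie above them.

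The fourth rule, by level, gave these contigs on the lower side. PfusTSAr1.0-110031 stood at 435.3 CPM in F17, 1195 in F3, 1008 in F34 and 1196 in F52, against 1508 to 2046 CPM in workers (median 1769.7). PfusTSAr1.0-087681 stood at 435.3, 350.4, 238.1 and 322.2 CPM in the same foundresses, against 461.4 to 701.1 CPM in workers (median 571.2). Both were lower in every foundress than in every worker, with log2 fold changes of -0.65 (SE 0.12, adjusted p = 0.0107) and -0.91 (SE 0.13, adjusted p = 0.0037) in edgeR without F17.

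On the higher side the rule took PfusTSAr1.0-113328, at 1109 CPM in F17, 486.1 in F3, 488.1 in F34 and 697.2 in F52, against 209.0 to 438.1 CPM in workers (median 325.3). Its partner PfusTSAr1.0-113334 had 0.985 to 1.02 times the level of the first in each of the 12 libraries, so the pair cannot be told apart and stands for 1 result. The log2 fold changes were 0.78 (SE 0.20, adjusted p = 0.0414) and 0.76 (SE 0.19, adjusted p = 0.044) in edgeR without F17. They missed the FDR in 12 and 13 of 22 alternative settings, and without F52 the adjusted p were 0.185 and 0.201.

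Another 2 contigs were named after their values were seen: the first overlapped between the groups in both fits, and the second overlapped only with F17. PfusTSAr1.0-043282, the most abundant contig called, stood at 25223 CPM in F17, 4908 in F3, 40580.0 in F34 and 6618 in F52, against 1326 to 9532 CPM in workers (median 2376). FW28 held the 9532 CPM, and the next worker held 2619.7 CPM, so FW28 alone reached into the range of the foundresses. The log2 fold change was 2.53 (SE 0.59, adjusted p = 0.0307 in edgeR, without F17) and 0.94 without F34 as well (adjusted p = 0.341). The contig missed the FDR in 13 of 22 alternative settings, with adjusted p of 0.0559 in DESeq2, 0.063 in limma-voom and 0.104 with robust dispersions, and also when any 1 of FW10, FW25, FW11, FW24, FW32 and FW44 was left out. In foundresses trained to faces it ran from 2120.5 to 23150.2 CPM.

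PfusTSAr1.0-052506, the steepest fall among contigs of at least 1 CPM, stood at 2.27 CPM in F3, 1.82 in F34 and 2.39 in F52 but at 27.6 CPM in F17, against 6.18 to 390.3 CPM in workers (median 47.1). Workers themselves spread widely, and F17 lay among them. The log2 fold change was -5.02 without F17 (SE 1.08, adjusted p = 0.0226) and -3.03 with it (SE 1.01, adjusted p = 0.108) in edgeR. With F17 also out, edgeR's adjusted p was 0.0672 without F3, 0.0785 without F34 and 0.0766 without F52. Also without F17, it was 0.139 in limma-voom, 0.18 with quality weights there and 0.0869 with robust dispersions in edgeR. The contig thus missed the FDR in 6 of 22 alternative settings. Conspecific workers averaged 181.1 ± 163.6 CPM (SD) and allospecific workers 26.9 ± 30.9 CPM. The log2 fold changes against them were -4.40 and -1.66 with F17.

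Of all 157691 contigs, few were counted in every foundress trained to patterns and in no worker, or the reverse, and nearly all of those had low counts. Foundresses trained to faces were not looked at here. With at least 5 counts in each library of 1 group and 0 counts in each of the other, 0 contigs were found on either side. With at least 1 count there were 29 contigs counted only in foundresses and 35 only in workers, and with at least 3 counts 0 and 2. Without F17, 0 contigs were counted only in foundresses and 1 only in workers at 5 counts, 0 and 5 at 3 counts, and 118 and 64 at 1 count. The groups differ in size and the foundress libraries hold fewer counts, so the numbers on the sides cannot be compared with each other.

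Set against each nest group separately, the foundresses differed from conspecific workers in 122 contigs, 0.206%, with 63 higher (0.106%) and 59 lower (0.0996%). From allospecific workers they differed in 1057, 1.78%, with 644 higher (1.09%) and 413 lower (0.697%) (edgeR, 12 libraries). Without F17 the count against conspecific workers was 332, 0.546%, with 138 higher (0.227%) and 194 lower (0.319%), and against allospecific workers 2419, 3.98%, with 1334 higher (2.19%) and 1085 lower (1.78%). Which side held more calls was not stable. With libraries scaled by their totals alone and F17 in the fit, 49 were higher and 96 lower against conspecific workers, and 407 higher and 537 lower against allospecific workers. At an FDR of 0.01 these were 0 higher and 9 lower, and 36 higher and 67 lower. The comparisons share the same foundresses, so they are not independent of each other. In the 15 contigs named by rule that entered the 12-library fit, both contrasts had the same direction. The rules took contigs with all foundresses, or all but F17, on 1 side of all workers, so the shared direction followed from the choice. The difference between the nest groups itself did not pass the FDR in any of them (edgeR, adjusted p = 0.99998). Contigs chosen in this way cannot show whether the nest groups are alike. PfusTSAr1.0-065071 had log2 fold changes of -1.32 (SE 0.14) against conspecific and -1.59 (SE 0.14) against allospecific workers, and PfusTSAr1.0-037308 had 1.53 (SE 0.22) and 1.54 (SE 0.22).

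These counts, too, moved with single wasps. With F17 in the fit and without FW28 the count against conspecific workers was 543, and it was 77 without F52, 28 without FW10, 18 without FW25, 30 without FW47 and 50 without FW32. Against allospecific workers it was 680 without FW47, 234 without FW11, 215 without FW24, 189 without FW32 and 183 without FW44. The lower side then held more calls against conspecific workers without FW10, FW25, FW47, FW11 or FW32, down to 1 higher and 17 lower without FW25. It did so against allospecific workers without FW11, FW24, FW32 or FW44, with 109 higher and 125 lower without FW11 and 78 and 105 without FW44. With F17 out, the conspecific count was 141 without F3, 169 without F34, 148 without F52, 89 without FW10, 127 without FW25, 1824 without FW28, 164 without FW47 and 181 without FW32. The allospecific count was then 1601 without F3, 1234 without F34, 1168 without F52, 1020 without FW11, 1119 without FW24, 841 without FW32 and 1467 without FW44. Without FW28 the allospecific count rose as well, to 1317 with F17 in the fit and 3426 with F17 out. The median SD of log2 CPM over contigs was 0.238 in conspecific workers, 0.206 in the 3 of them other than FW28, and 0.219 in allospecific workers. The part of FW28 in the difference between the counts was not tested.

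Each wasp was also placed between the castes at the contigs called without it, with F17 out of every fit, a check chosen after the data were seen. A wasp was counted on the foundress side of a contig where its log2 CPM was nearer to the mean of the other foundresses than to that of the other workers. F17 lay on the foundress side in 61.9% of 2569 contigs, F3 in 63.8% of 1604, F34 in 60.5% of 1132 and F52 in 67.8% of 1180. Workers other than FW28 lay there in 4.36 to 16.9%, the highest being FW47. FW28 lay there in 58.5% of 4537 contigs, with 64.1% among those higher in foundresses and 48.5% among those lower. On a scale with the other workers at 0 and the other foundresses at 1, its median position was 0.583, against -0.0892 to 0.180 for the other workers, 0.641 to 0.681 for F3, F34 and F52 and 0.827 for F17. For F3, F34 and F52 the fit and the foundress mean rested on fewer foundresses than for F17 and the workers. The values of FW28 and of these foundresses are therefore not on like terms. FW28 is labelled a worker collected in July, and the fits here take it as one. Without it the foundresses differed from workers in 4537 contigs with F17 out and 2840 with F17 in.

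**Figure D5:**
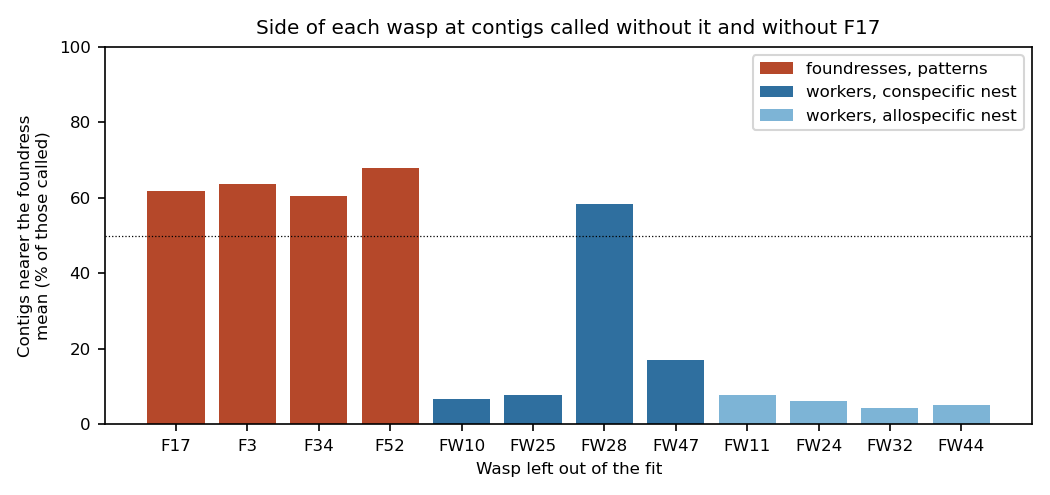
Percent of called contigs at which each wasp lay nearer to the foundress mean than to the worker mean, in the fit made without that wasp and without F17. The 4 foundresses stand at 60.5 to 67.8%, FW28 at 58.5% and the other 7 workers at 4.36 to 16.9%, and the dotted line marks 50%. Bars of F3, F34 and F52 rest on fits with fewer foundresses than the other bars.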

How the data were processed

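The authors deposited raw read counts, all whole numbers, of 157691 contigs in 17 libraries. Trimmomatic 0.32, Bowtie2 and eXpress were used, per the submitters' processing notes. How reads matching more than 1 contig were counted is not given in the sources used here. Per the labels' protocols, TruSeq libraries were made from 1 µg of total RNA. Each wasp is a separate animal, and its colony is not given.

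Counts of 12 libraries (and 11 without F17) were fitted in R 4.3.3 with edgeR 4.0.16: expression filter by group, TMM, 1 mean per label group, and a quasi-likelihood F-test, two-sided, of foundresses minus the mean of both worker groups, with Benjamini-Hochberg adjustment at an FDR of 0.05. The filter kept 99.3% and 99.4% of counts, residual degrees of freedom were 9 and 8, and the biological coefficients of variation 0.260 and 0.191. The SE is the log2 fold change over the square root of F. CPM uses the 12-library scale, and log2 CPM a prior count of 2. Contigs named by size or level had a mean of at least 1 CPM and no overlap over the 12 libraries. The present-or-absent rule, set on the 12 libraries, found none. Single values were compared by exact permutation tests (scipy 1.17.1). Libraries of 1 group all differed by more than counting error (lowest chi-square per degree of freedom 6.51). The procedure was tested on simulated data. The comparison, rules and lists were chosen with earlier results of these data known, and the gene lists drawn up could not be looked up without gene names. Alternatives used DESeq2 1.42.0 and limma 3.58.1.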

Additional observations from a re-analysis of the deposited data

Results flagged for a closer look

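A wasp lay far from the rest of its group by Dixon's test in 13 of the 84 groups of values examined. For values not chosen beforehand the test flags about 1 in 20, or 4.2. Most of these groups are levels of the named contigs, which were picked on the same libraries and in part may share reads. The 13 can therefore not be weighed against the 4.2. The total of F3 was 7.69 M counts, with F17, F34 and F52 at 14.9 to 15.8 M. F17 had 82304 contigs detected at equal depth, against 91537 to 92365, and a median distance from its group of 0.688 log2 CPM, against 0.338 to 0.354.

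F17 also stood apart from the other foundresses trained to patterns in PfusTSAr1.0-027972, at 0.331 CPM against 0.910 to 1.01 CPM, in PfusTSAr1.0-033608, at 4.80 CPM against 10.2 to 10.8 CPM, and in PfusTSAr1.0-052506, at 27.6 CPM against 1.82 to 2.39 CPM. PfusTSAr1.0-069574 reached 8.95 CPM in F34, with F17, F3 and F52 at 0.754 to 1.26 CPM.

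PfusTSAr1.0-043282 reached 9532 CPM in FW28, with FW10, FW25 and FW47 at 1326 to 2088 CPM. PfusTSAr1.0-103899 was at 0.629 CPM in FW25, with the other conspecific workers at 0.811 to 0.824 CPM. In allospecific workers, PfusTSAr1.0-065073 was at 303.02 CPM in FW44, with the rest at 323.9 to 326.1 CPM. FW24 showed 0.0492 CPM of PfusTSAr1.0-027972 and FW32 had 0.534 CPM of PfusTSAr1.0-069574, where the other 3 had 0 counts. Any level above 0 is flagged where the rest of the group is at 0. F29, a foundress trained to faces outside the fits, reached 41.4 CPM of PfusTSAr1.0-057966, with the others of its group at 3.45 to 13.6 CPM.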

How the results depend on the processing

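No paired analysis was possible because every library is its own wasp and nothing in the labels links a foundress with a worker. The count for foundresses against workers with F17 was 4813 at an FDR of 0.1, 206 at 0.01, 4791 with DESeq2's Wald test, 5082 with no filter, 22 with July workers only, 2 with August workers only, 14 and 329 with only conspecific or allospecific workers fitted, 3573 with May foundresses only and 1428 runs of neighbouring contigs, and 894 to 2840 without 1 wasp. Without F17 it was 5444 and 405 at those FDR levels, 6778 with no filter, 356 and 169 with July or August workers only, 111 with only conspecific workers fitted and 1617 runs, and 1132 to 4537 without 1 further wasp. Settings that leave out workers also leave fewer samples.

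Against conspecific workers the count was 480 and 9 at FDR levels of 0.1 and 0.01, 1503 with DESeq2, 824 with quality weights in limma-voom, 1641 with no filter and 332 without F17, and 18 to 543 without 1 wasp. Against allospecific workers it was 2834, 103, 3569, 2889, 3629 and 2419 in the same order, and 183 to 2419 without 1 wasp. With no filter both counts are of 151562 contigs tested, against 59242 with the filter. For the other shifts the cause was not tested. Robust dispersions, DESeq2 size factors and a filter of 1 CPM in 4 libraries kept each of these 4 counts within 1.5 times.

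Without 1 wasp, the difference of foundresses minus workers ran from -6.08 to -3.36 M in total counts, from 3526 to 6880 in contigs detected and from 2.12 to 5.19 points in the share of the top 10 contigs. The difference in contigs detected kept its side of an unadjusted p of 0.05 in 3 of these 12 settings. Among alternative values for the named contigs, 0 reversed direction, and 5 of 92 with F17 and 52 of 306 without it missed the FDR. Leaving out wasps from the library values and naming contigs by overlap were chosen after the data were seen. Few counts limit PfusTSAr1.0-027972 and PfusTSAr1.0-069574. The filter of 1 CPM in 4 libraries left both out, which is not counted among the values that missed the FDR.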
